A study of Mus musculus with 7 samples.

Results

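The extracellular matrix genes described here code for collagens, laminins, fibulins, fibrillins, the matrix metalloproteinases, their Timp inhibitors, Adamts proteases and integrins, with fibronectin (Fn1), procollagen C-endopeptidase enhancer (Pcolce), lysyl oxidase (Lox) and biglycan (Bgn). They were chosen by gene symbol. Of 20355 probes on the array, 131 carried 1 symbol of this set and stood for 81 genes. Of these, 75 probes of 48 genes were measured on 3 or more of the 3 h arrays and 2 or more of the 10 h arrays and entered the fit, which held 11559 probes in all. The remaining 56 probes did not, and 33 genes had no probe in the fit.

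The cells were NIH3T3, an established mouse embryonic fibroblast line, that overexpressed Acid1, and RNA was taken 3 h and 10 h after a treatment that the labels do not describe. Each array was hybridised with cDNA of treated fibroblasts and, in the other dye, cDNA of non-treated fibroblasts, on 4 arrays at 3 h and 3 arrays at 10 h. The treated sample was in Cy5 on replicates 1 and 2 of each time and in Cy3 on replicates 3 and 4 at 3 h and replicate 3 at 10 h. The labels do not say whether the non-treated cells overexpressed Acid1, whether the line was a clone, how the gene was driven, or whether replicates were separate cultures. Accordingly, the p-values rest on the scatter of these arrays alone, and that scatter could be technical. No probe was annotated as Acid1, so the overexpression could not be checked.

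In connective tissue, fibroblasts secrete fibrillar collagens that are trimmed by proteases, assembled into fibrils on a fibronectin and minor-collagen scaffold, and crosslinked by lysyl oxidase. Laminins and type IV collagen form the basement membrane instead. Metalloproteinases of the Mmp and Adamts families cut these proteins, Timp proteins inhibit them, and integrins, dimers of an alpha and a beta chain, bind the matrix to the cytoskeleton.

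All values are log2 ratios, read as treated over non-treated cells, so that 0 means equal signal. The direction of the deposited ratios is not stated and this reading is an assumption. Each array also held 1 repeated extreme value, treated as missing, whose sign followed the dye. It was 16.05 to 17.06 with the treated sample in Cy5 and -16.71 to -15.98 with it in Cy3. A fixed stand-in would keep 1 sign under Cy5 over Cy3. What the value stands for is not stated, and the direction was not tested. If the ratios were instead Cy5 over Cy3, the arrays with the treated sample in Cy3 would change sign. Each statement that such an array lay above or below 0 would then be reversed. Medians of all members and of each class under that reading are given beside the main ones. Values of the other functional and marker lists are given in the assumed direction only. A ratio carries no level, so levels of different genes cannot be compared and the fibroblast identity of the cells could not be read from marker abundance. Fewer cells of a type and less RNA per cell cannot be told apart in such bulk samples.

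Many ratios were coarse, above all at 3 h. Between 13262 and 15157 spots were measured on the arrays at 3 h and between 16395 and 17766 at 10 h. Many values, once each array's own constant was subtracted, matched (within 0.0016 on the log2 scale) a quotient of small whole numbers, none above 8. They made up 56.05 to 63.44% of measured values on the 3 h arrays and 11.98 to 13.07% at 10 h. Among the matrix and integrin probes in the fit, 97 of 276 values (35.1%) were of this kind at 3 h and 20 of 217 (9.2%) at 10 h. The 28 member probes with values on all 7 arrays and none at such a ratio, which stood for 17 genes, are called well measured below, a class defined after the values were seen.

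No matrix or integrin gene differed between treated and non-treated cells past the threshold at either time. At 3 h, 0 of 75 member probes passed in either direction (limma, Benjamini-Hochberg adjusted p under 0.05 over all probes), as did 0% of all 11559 probes. The smallest adjusted p among members was 0.239. At 10 h again 0 members passed, with 0% over all probes, and the smallest adjusted p rounded to 1. The difference between the times, 10 h minus 3 h, gave 0 members and 0% of all probes, with a smallest adjusted p of 0.574 among members. The median standard error of a member's fitted ratio was 0.32 at 3 h, 0.37 at 10 h and 0.49 for the difference, and differences of that size were not detectable with these arrays.

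Before adjustment, 10 members had p under 0.05 in limma at 3 h, or 13.3% of members against 13.6% of all probes. Of these, 1 was higher and 9 lower, against 3.13% and 10.5% of all probes. At 10 h there were 2 (2.67% against 3.88%), 1 higher and 1 lower (1.56% and 2.32% of all probes). The difference gave 7 (9.33% against 8.06%), 4 higher and 3 lower at 10 h (5.33% and 2.73% of all probes). Read as Cy5 over Cy3 the counts were 4 at 3 h, 3 at 10 h and 4 in the difference, against 7.89%, 5.43% and 5.34% of all probes. In the assumed direction the shares over either sign lay near the background of the whole array. All 10 of the members at 3 h (Col4a1, Col26a1, Mmp14, Mmp8, Timp3, Timp4, Itga2, Itga2b, Itgb1 and Itgb1bp2, each through 1 probe) had at least 1 value at a ratio of small whole numbers, as did 84.7% of all probes with p under 0.05 at 3 h, 81.8% of all probes in the fit and 62.7% of members in it. Of the 28 well measured members 0 were among them, against 9.6% of the 1833 well measured probes of the array. Nor was any of the 28 among those at 10 h or in the difference (0.327% and 5.24% of well measured probes). Arrays of the 2 times did not overlap for 10 members, or 13.3%, against 14.6% of all probes. The 10 h arrays were higher for 7 of these, Col4a1, Lama5, Timp3, Timp4, Itga2b, Itgb1bp2 and Itgb3bp (9.87% of all probes), and lower for 3, Col1a1, Col6a2 and Adamts12 (4.72%).

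Every measured array was above 0 for 7 members at 3 h and below 0 for 14, against 7.09% and 16.4% of all probes. At 10 h these counts were 11 and 13, against 16.4% and 16.3%. As shares of 75 they were 9.33% and 18.7% at 3 h, and 14.7% and 17.3% at 10 h.

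Fitted ratios of the members had a median of -0.06 at 3 h, where the median of all probes was -0.15, and of -0.06 at 10 h, where it was -0.03. Values above 0 were found for 32 of 75 members at 3 h (42.7%, against 38.6% of all probes) and 30 at 10 h (40%, against 46.5%). The fitted difference was above 0 for 36 (48%, against 58.3%). Read as Cy5 over Cy3, 45 members lay above 0 at 3 h with a median of 0.14 (all probes 0.03), and 40 at 10 h with a median of 0.01 (all probes 0.04). The sign of the members' median therefore changed with the reading at both times. In the assumed direction the 3 h median was also above 0 in some settings. It was 0.145 without replicate 3 at 3 h, 0.162 on the Cy5 arrays alone, 0.111 without small whole-number ratios and 0.054 with no filter. It stayed below 0 with any other single array left out.

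**Figure D1:**
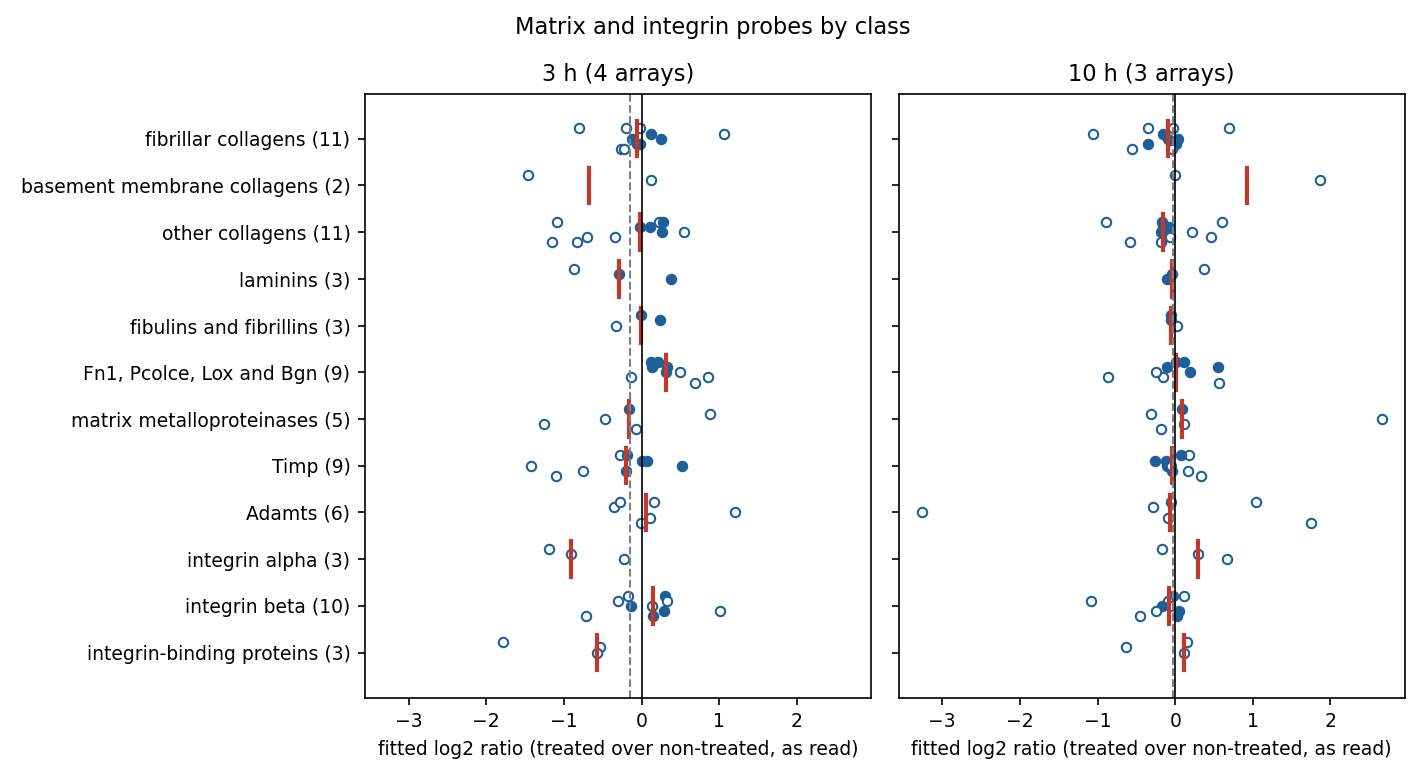
Fitted log2 ratio (treated over non-treated, horizontal axis) of each of the 75 matrix and integrin probes at 3 h (left) and 10 h (right), by class, on the same scale. Filled points are the 28 well measured probes, open points the others, red bars class medians, and the dashed line the median of all 11559 probes; filled points sit closer to 0 than many open ones at both times.

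The well measured members showed how the 3 h arrays differed. Their median was 0.27 on replicate 1, 0.23 on replicate 2, -0.65 on replicate 3 and 0.40 on replicate 4. Above 0 were 20, 23, 5 and 26 of the 28 probes in that order, so replicate 3 stood apart. For all 1833 well measured probes the medians were -0.04, -0.04, -0.59 and 0.12. Replicate 3 was thus low for well measured probes of any kind, and on the other 3 arrays the members' medians lay above those of all such probes. Of the 28, 17 were above 0 on replicates 1, 2 and 4 alike, against 19.6% of all well measured probes, and 14 of those 17 were below 0 on replicate 3, against 16% of all for that full pattern. Replicates 3 and 4 had the treated sample in the same dye, so turning ratios by dye cannot bring both to the same side. This description has no test, since it was noticed in the values.

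At 10 h the same 28 probes lay close to 0, with medians of -0.04, 0.04 and -0.08 on the 3 arrays, against 0.04, 0.09 and -0.06 for all well measured probes. Of these, 26 stayed within 0.5 of 0 on every 10 h array, as did 79.2% of all. The median SD of a probe over its arrays was 0.53 at 3 h and 0.11 at 10 h, so the scatter was wider at 3 h. For all well measured probes the corresponding SDs were 0.55 and 0.16.

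**Figure D2:**
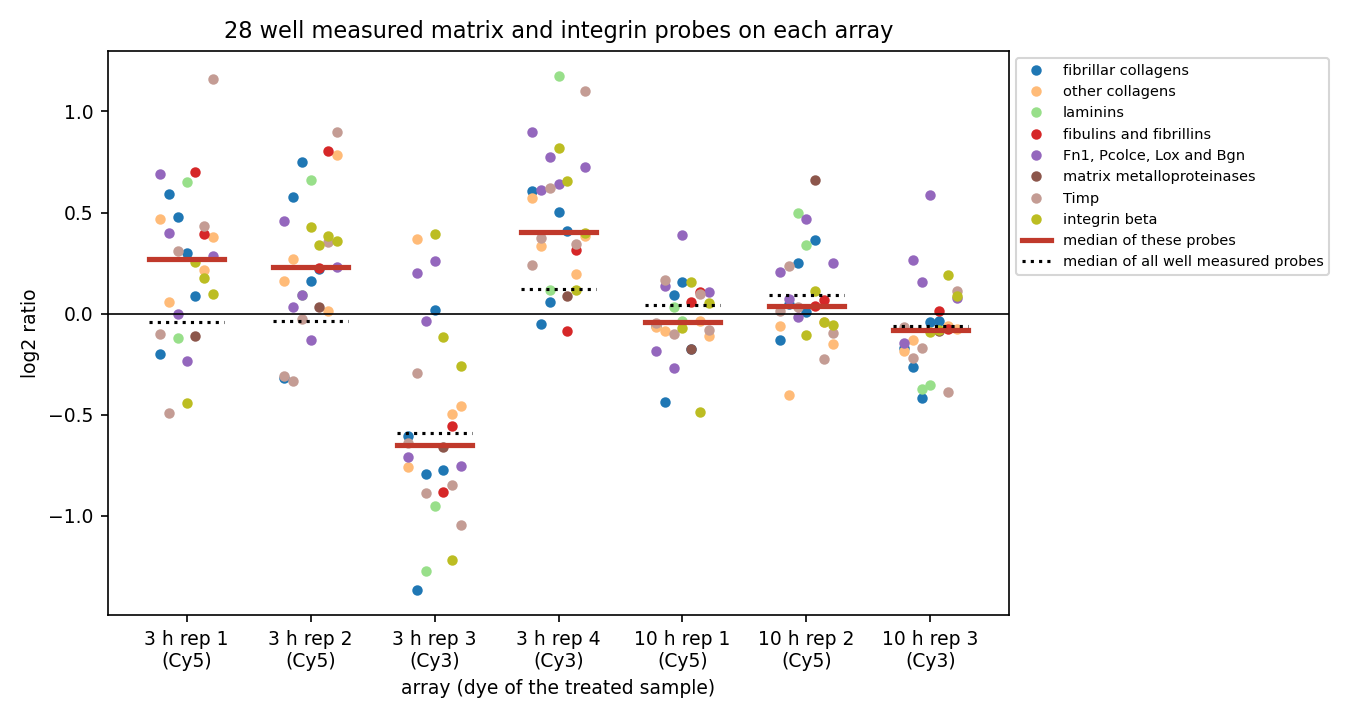
Log2 ratio (vertical axis) of the 28 well measured matrix and integrin probes on each of the 7 arrays, coloured by class, with the dye of the treated sample in brackets. Red bars mark the median of these probes and dotted bars that of all 1833 well measured probes; the points spread widely at 3 h, lie mostly below 0 on replicate 3, and gather near 0 at 10 h.

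Fibrillar collagens, the rod-like proteins that bear tension in connective tissue, had 11 probes of 6 genes in the fit. Their fitted median was -0.06 at 3 h and -0.10 at 10 h (0.22 and 0.05 read as Cy5 over Cy3), and 0 passed. Col1a1, the alpha 1 chain of type I collagen, had 1 probe in the fit, 4862, with 0.60, 1.22 and 1.52 on replicates 2, 3 and 4 at 3 h and -2.21, 0.04 and -1.18 on the 10 h arrays. All 3 values at 3 h were above every value at 10 h, but all 3 were also ratios of small whole numbers. Its mean was 1.11 ± 0.47 (SD, n = 3) at 3 h and -1.12 ± 1.13 (SD, n = 3) at 10 h. The difference fitted by limma was -2.12 with a standard error of 0.70, and an adjusted p of 0.587. Read as Cy5 over Cy3 the difference was 0.43 and the fitted ratio at 3 h -0.74, so both signs depended on the assumed direction. The second Col1a1 probe, 4831, was outside the fit, with 2.77 on the 1 array that measured it at 3 h and -2.81 and 0.80 at 10 h.

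Col1a2, which codes for the alpha 2 chain that joins 2 alpha 1 chains in the same triple helix, did not show this pattern. It had 2 well measured probes, of which 3130 gave -0.20, -0.32, -0.60 and 0.61 at 3 h and -0.06, -0.13 and -0.17 at 10 h. The values at 3 h straddled 0, those at 10 h were all slightly below it, and the times overlapped. The other, 18404, gave 0.59, 0.58, -1.37 and -0.05 at 3 h and -0.44, 0.05 and -0.27 at 10 h, with a wide spread at 3 h. Across its 4 probes, fitted ratios ran from -0.26 to -0.06 at 3 h and from -0.55 to -0.10 at 10 h, with every adjusted p at 0.756 or above in limma. Replicate 3 gave the lowest 3 h value on all 4 probes.

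Type V collagen, which starts type I fibrils and limits their diameter, had 2 probes of Col5a1, 2 of Col5a2 and 1 of Col5a3 in the fit. Probe 4528 of Col5a1 gave 0.30, 0.16, 0.02 and 0.51 at 3 h and 0.16, 0.01 and -0.04 at 10 h. It was above 0 on every 3 h array, with a mean of 0.25 ± 0.21 (SD, n = 4) and an adjusted p of 0.679 in limma. The other, 3683, gave 0.48, 0.75, -0.79 and 0.06 at 3 h, and so was below 0 on replicate 3. Col5a2 and Col5a3 had fitted ratios between -0.22 and -0.01 at 3 h and between -0.04 and 0.01 at 10 h. Col11a2, a chain of the cartilage fibril, gave -2.13, -1.40, 1.52 and -1.20 at 3 h and 0.20, 1.58 and -0.08 at 10 h, a spread that covered most of the class.

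Among the other collagens, 11 probes of 9 genes had a median of -0.02 at 3 h and -0.15 at 10 h (0.13 and -0.15 read as Cy5 over Cy3), and 0 passed. Type VI collagen forms beaded filaments around cells, and its 3 probes in the fit, of Col6a1 and Col6a2, were all well measured. Col6a1 gave 0.38, 0.78, -0.46 and 0.38 at 3 h and -0.11, -0.15 and -0.08 at 10 h. It was above 0 on 3 of 4 arrays at 3 h and below 0 on all 3 at 10 h. Col6a2 probe 19514 gave 0.06, 0.27, 0.37 and 0.33 at 3 h and -0.09, -0.40 and -0.13 at 10 h, with no overlap between the times. Its second probe, 1536, gave 0.47, 0.16, -0.76 and 0.57 at 3 h and -0.07, -0.06 and -0.19 at 10 h, which overlapped through replicate 3. These 3 probes therefore lay below 0 on every 10 h array, while the limma adjusted p of the difference was 0.789 for Col6a1 and 0.757 and 0.901 for the Col6a2 probes.

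Less precise were the collagens with coarse or missing values. Col26a1 gave -1.14, -0.40 and -1.65 at 3 h, where replicate 3 was not measured, and -0.56, 0.54 and -0.24 at 10 h. It was below 0 on each 3 h array measured (limma adjusted p = 0.286), with 2 of those 3 values at ratios of small whole numbers. Read as Cy5 over Cy3, its fitted ratio at 3 h was 0.26, in place of -1.15. Col23a1, a transmembrane collagen, had 1 probe in the fit, 1340, with -0.01, -2.81 and 0.20 on replicates 1, 2 and 4 at 3 h. Its mean was -0.88 ± 1.68 (SD, n = 3) at 3 h, set by replicate 2, and 0.29 ± 0.24 (SD, n = 3) at 10 h. Probe 6286 of the same gene was outside the fit. It gave 2.04, 1.19, 0.90 and -0.48 at 3 h, all ratios of small whole numbers, and 0.05 on 1 array at 10 h. The 2 probes in the fit of Col9a3, a chain of a cartilage collagen, ranged from -2.72 to 0.87 at 3 h and from -4.44 to 1.03 at 10 h. Fitted ratios of Col9a2, Col12a1, Col16a1 and Col18a1 ran from -0.34 to 0.55 at 3 h and from -0.075 to 0.61 at 10 h.

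In the basement membrane class only Col4a1 was in the fit, and its 2 probes there disagreed. Probe 8611 gave -2.13, -0.69 and -1.20 at 3 h, without replicate 2, and -0.36, -0.05 and 0.04 at 10 h. Every 3 h value was below every 10 h value, and its fitted ratio at 3 h, -1.46 with a standard error of 0.33, had the smallest p of all members in the assumed direction (limma adjusted p = 0.239). With the ratios taken as Cy5 over Cy3 it was -0.35. Probe 19384 of the same gene gave 0.45, 0.77 and 0.11 at 3 h, all above 0, and 0.28, 0.19 and 4.16 at 10 h. The last value, on replicate 3, set the 10 h fit of 1.87 (limma adjusted p = 1), which was 0.23 without that array. Outside the fit, Col4a1 probe 19383 gave 2.77 and 0.77 at 3 h, both ratios of small whole numbers, and -0.725 on 1 array at 10 h. Probe 19618 gave only 0.15 on 1 array at 10 h. Col4a2, the partner chain of Col4a1, was measured on 0 arrays at 3 h and gave 3.15, 0.79 and 0.73 at 10 h, all above 0, but could not enter the fit. Read as Cy5 over Cy3, the class median was -0.03 at 3 h and -0.78 at 10 h, in place of -0.67 and 0.93.

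Laminins are the cross-shaped trimers of the basement membrane, and 3 probes of Lama5 and Lamc1 were in the fit with a median of -0.30 at 3 h and -0.05 at 10 h (0.27 and 0.21 read as Cy5 over Cy3). Lamc1, the gamma 1 chain shared by most laminins, had 2 well measured probes. Probe 18428 gave 0.65, 0.66, -0.95 and 1.17 at 3 h and -0.04, 0.34 and -0.35 at 10 h. Probe 18038 gave -0.12, 0.09, -1.27 and 0.12 at 3 h and 0.03, 0.50 and -0.37 at 10 h. Replicate 3 was the lowest 3 h array for both probes and replicate 4 the highest, yet their fitted ratios at 3 h, 0.38 and -0.30, had opposite signs. Lama5 gave -1.87, -0.37 and 0.07 at 3 h, without replicate 2, and 0.08, 0.37 and 0.22 at 10 h, so the highest 3 h value lay just under the lowest at 10 h (limma adjusted p of the difference 0.621).

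Fibulins, small glycoproteins of elastic fibres and basement membranes, had 3 probes in the fit, with a median of -0.01 at 3 h and -0.05 at 10 h (0.36 and 0.04 read as Cy5 over Cy3). Without the dye term the median at 10 h was 0.03. With it, Fbln2 had a fitted ratio of -0.06 at 10 h although every 10 h array lay above 0. Fbln5, which guides elastic fibre assembly, gave 0.39, 0.80, -0.56 and 0.31 at 3 h and 0.11, 0.07 and -0.08 at 10 h. Fbln2 gave 0.70, 0.23, -0.88 and -0.08 at 3 h and 0.06, 0.04 and 0.01 at 10 h. Both were lowest on replicate 3 and near 0 on all 10 h arrays. Fbln7 gave -0.55, -0.40 and -0.19 on its 3 arrays at 3 h and -0.32 and 0.07 on 2 arrays at 10 h.

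The group of Fn1, Pcolce and Lox had a median of 0.31 at 3 h, the highest of any class in the assumed direction, with 8 of its 9 probes above 0, and a median of 0.01 at 10 h with 5 above 0 (0.14 and -0.11 read as Cy5 over Cy3). None of the 9 passed. Fn1, the dimeric glycoprotein on which other matrix proteins assemble, had 5 probes, 3 of them well measured. Probe 3995 gave 0.40, 0.03, 0.20 and 0.61 at 3 h and 0.14, 0.07 and 0.26 at 10 h, above 0 on all 7 arrays. Probe 1347 gave 0.28, 0.23, -0.75 and 0.72 at 3 h and 0.11, 0.25 and 0.08 at 10 h. Probe 1795 gave 0.69, 0.46, -0.71 and 0.90 at 3 h and -0.19, 0.20 and -0.14 at 10 h. All 3 were above 0 on replicates 1, 2 and 4 at 3 h, but only the first was so on replicate 3. The other 2 probes had fitted ratios at 3 h of -0.13 (18348) and 0.69 (19922), and the lowest limma adjusted p of any Fn1 probe at 3 h was 0.565.

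Pcolce, which speeds the removal of the procollagen C-propeptide, had fitted ratios above 0 at 3 h and below 0 at 10 h on both probes. Probe 1492 gave 0.57, 0.88, -0.20 and 0.73 at 3 h and -0.12, -0.21 and -0.25 at 10 h, where only replicate 3 reached the 10 h values. Its means were 0.50 ± 0.48 (SD, n = 4) and -0.19 ± 0.07 (SD, n = 3), and the fitted difference of -0.74 had a standard error of 0.40 and a limma adjusted p of 0.646. Probe 3553 gave 2.26, -0.81, 1.90 and 0.11 at 3 h and -1.56 and -0.18 on 2 arrays at 10 h, all of them ratios of small whole numbers.

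Lox, the enzyme that oxidises lysines to crosslink collagen and elastin, had 2 well measured probes with different patterns. Probe 20301 gave -0.24, -0.13, 0.26 and 0.64 at 3 h and 0.39, 0.47 and 0.59 at 10 h. It was above 0.3 on all 10 h arrays, with a mean of 0.48 ± 0.10 (SD, n = 3) and a limma adjusted p of 1. Its fitted ratio at 10 h was -0.003 read as Cy5 over Cy3. Probe 1602 gave -0.00, 0.09, -0.04 and 0.78 at 3 h and -0.27, -0.02 and 0.16 at 10 h, and so lay on both sides of 0 at 10 h. Bgn, a small proteoglycan that binds collagen fibrils, was measured on 2 arrays at each time (1.77 and 0.52 at 3 h, -3.99 and 0.63 at 10 h) and was not in the fit.

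Matrix metalloproteinases had 5 probes of 5 genes in the fit, with a median of -0.16 at 3 h and 0.09 at 10 h (0.12 and 0.19 read as Cy5 over Cy3), and 0 passed. Mmp14, a membrane-bound collagenase that also activates the gelatinase Mmp2, gave 0.19, -0.23, 1.48 and 2.11 at 3 h and -1.10 and 0.48 on replicates 1 and 3 at 10 h. Its 2 high values came from the 2 arrays with the treated sample in Cy3, and all 4 values at 3 h were ratios of small whole numbers. With the dye term in the model the fitted ratio at 3 h was 0.89 with a standard error of 0.26 (limma adjusted p = 0.269), and -0.91 read as Cy5 over Cy3. Mmp3, stromelysin 1, gave -0.99, -0.10 and -1.48 at 3 h and 5.47 and -0.15 at 10 h. The 10 h value rested on 1 array: the fit was 2.66 with all arrays and -0.24 without replicate 1 at 10 h. Mmp9, the other gelatinase, gave 0.45, 0.51 and -0.93 at 3 h and 0.15, -0.65 and 0.20 at 10 h, on both sides of 0 at each time.

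Mmp8, the neutrophil collagenase, gave -2.36, -0.10 and -0.80 at 3 h, all below 0 and all ratios of small whole numbers, and 0.10, -0.25 and -0.00 at 10 h (limma adjusted p = 0.286 at 3 h). Mmp11, stromelysin 3, was the only well measured metalloproteinase, with -0.11, 0.04, -0.66 and 0.09 at 3 h and -0.18, 0.66 and -0.09 at 10 h. Mmp2, the main gelatinase of fibroblasts, was measured on 0 arrays at 3 h and 2 at 10 h (-3.04 and 0.00), and Mmp13, an interstitial collagenase, on 1 and 3. A further 5 genes of the family (Mmp7, Mmp12, Mmp17, Mmp23 and Mmp24) were measured on too few arrays to be fitted.

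The Timp inhibitors had 9 probes of 4 genes in the fit, with a median of -0.20 at 3 h and -0.04 at 10 h (-0.00 and 0.06 read as Cy5 over Cy3), and 0 passed. Timp2, which inhibits metalloproteinases and also helps Mmp14 to activate Mmp2, had 2 well measured probes. Probe 18062 gave 1.16, 0.90, -1.05 and 1.10 at 3 h and -0.08, -0.10 and 0.11 at 10 h. Probe 16306 gave 0.43, 0.35, -0.85 and 0.35 at 3 h and 0.10, -0.22 and -0.39 at 10 h. Each was above 0 on replicates 1, 2 and 4 and far below on replicate 3. With replicate 3 included, the mean of probe 18062 at 3 h was 0.53 ± 1.06 (SD, n = 4), a spread wider than the mean.

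Timp3, which is held in the matrix and also inhibits Adamts proteases, had 4 probes. Probe 447 gave -0.10, -0.31, -0.64 and 0.24 at 3 h and -0.05, 0.01 and -0.07 at 10 h. Fitted ratios of the 4 probes ran from -1.10 to 0.00 at 3 h and from -0.12 to 0.33 at 10 h. The lowest belonged to probe 453, with -2.40, -0.10 and -0.22 at 3 h and 0.27, -0.06 and 0.20 at 10 h, below 0 on all 3 arrays at 3 h (limma adjusted p = 0.334). The other 3 probes lay on both sides of 0.

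Timp1 gave -0.55, -1.81, 0.60 and 0.66 at 3 h and -0.27, 0.15 and 0.07 at 10 h. Its 3 h values were below 0 on both arrays with treated cDNA in Cy5 and above 0 on both with it in Cy3. Timp4 probe 19919 gave -1.87, -1.10 and -0.70 at 3 h, all below 0 and all ratios of small whole numbers, and -0.28, -1.18 and 0.69 at 10 h (limma adjusted p = 0.244 at 3 h). The other Timp4 probe in the fit, 19966, gave -0.55, -1.69 and -0.25 at 3 h, again all below 0, and -0.23, 0.98 and -0.04 at 10 h (adjusted p = 0.475).

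Adamts proteases, secreted enzymes that cut proteoglycans and procollagens, had 6 probes of 6 genes in the fit, with a median of 0.05 at 3 h and -0.07 at 10 h (0.49 and -0.34 read as Cy5 over Cy3). None passed, and none was well measured. Adamts12 gave 2.04, -1.81, 3.07 and 1.52 at 3 h and -4.61 and -1.92 on 2 arrays at 10 h. Both 10 h values were below all 4 at 3 h, and in the assumed direction it had the smallest p of all members at 10 h (limma adjusted p = 1) and in the difference, which was -4.47 with a standard error of 1.12 (adjusted p = 0.574). Read as Cy5 over Cy3, the fitted ratio at 10 h was -1.35 and the difference -0.25. Its SD was 2.11 at 3 h, where 3 of 4 values were ratios of small whole numbers. Adamts1, which cuts versican and aggrecan, gave 1.04, -0.10 and -0.48 at 3 h and 0.23, 1.02 and 1.89 at 10 h, above 0 on all 10 h arrays (limma adjusted p = 1). All 3 of its values at 3 h were ratios of small whole numbers. Read as Cy5 over Cy3, its fitted ratio at 10 h was -0.49, in place of 1.04. Adamts17 gave 0.19, 0.73 and 0.52 at 3 h and -1.51, 0.45 and 4.84 at 10 h, its widest values. Adamts10 gave -0.08, 0.19, -1.05 and -0.48 at 3 h and 0.01, -0.11 and -0.45 at 10 h. Adamts7 and Adamts16 had fitted ratios of -0.28 and 0.11 at 3 h and of -0.06 and -0.09 at 10 h.

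Integrin alpha chains, which set ligand choice, had 3 probes in the fit and a median of -0.90 at 3 h and 0.29 at 10 h (-0.40 and 0.28 read as Cy5 over Cy3). With no filter on the number of values, 7 probes gave medians of -0.23 and -0.10, and the arrays with the treated sample in Cy5 alone gave -0.14 at 10 h. Itga2b, the alpha chain of the platelet fibrinogen receptor, gave -1.29, -1.33, -0.52 and -0.48 at 3 h and 0.33, 0.19 and 0.14 at 10 h. It was below 0 on all 4 arrays at 3 h and above 0 on all 3 at 10 h. The means were -0.90 ± 0.47 (SD, n = 4) and 0.22 ± 0.10 (SD, n = 3), and the fitted difference of 1.20 had a standard error of 0.38 (limma adjusted p = 0.579). That difference was 0.68 read as Cy5 over Cy3. Of its 4 values at 3 h, 2 were ratios of small whole numbers. Itga2, the alpha chain of a collagen receptor, gave -0.24, -1.62, -2.69 and -0.22 at 3 h and -0.65, 0.36 and -0.06 at 10 h, below 0 on all 3 h arrays (limma adjusted p = 0.332). Read as Cy5 over Cy3, the fitted ratio of Itga2 at 3 h was 0.26, in place of -1.19. Of its 4 values at 3 h, 2 were ratios of small whole numbers. Itga7, a laminin receptor chain, gave -2.36, 2.48 and 0.01 at 3 h and 0.33, 0.70 and 0.15 at 10 h.

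Integrin beta chains had 10 probes of 4 genes in the fit, with a median of 0.14 at 3 h and -0.08 at 10 h (0.01 and -0.07 read as Cy5 over Cy3), and 0 passed. Itgb1, the beta chain of most matrix-binding integrins, had 6 probes. Its well measured probe 7325 gave 0.25, 0.34, -0.12 and 0.66 at 3 h and 0.16, 0.11 and -0.08 at 10 h. Its other well measured probe, 139, gave -0.44, 0.43, 0.40 and 0.82 at 3 h and -0.07, -0.11 and -0.09 at 10 h. Both were above 0 on 3 of 4 arrays at 3 h, but the array below 0 was replicate 3 for the former and replicate 1 for the latter. At 3 h 4 of the 6 probes had fitted ratios above 0 and 2 below. Of those below, probe 8763 gave -0.44, -1.81, -0.10 and -0.48 at 3 h and -0.84, -0.98 and 0.04 at 10 h (limma adjusted p = 0.349 at 3 h), with 3 of its 3 h values at ratios of small whole numbers.

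Itgb5, a vitronectin receptor chain, gave 0.10, 0.36, -0.26 and 0.40 at 3 h and 0.05, -0.06 and 0.09 at 10 h on its well measured probe, 1540. The other Itgb5 probe in the fit, 916, gave 1.91, -0.81 and 1.52 at 3 h and -0.66, -0.51 and 0.05 at 10 h. Itgb4, the hemidesmosome chain, gave 0.18, 0.38, -1.22 and 0.12 at 3 h and -0.49, -0.04 and 0.19 at 10 h. On both Itgb4 and Itgb5 probe 1540, replicate 3 was the only 3 h array below 0. Itgb2, the leukocyte chain, gave 0.45, 1.19 and -1.80 at 3 h and -1.05, -0.40 and -1.07 at 10 h, below 0 on all 10 h arrays (limma adjusted p = 1). All 3 of its values at 3 h were ratios of small whole numbers. Read as Cy5 over Cy3, its fitted ratio at 10 h was 0.105, in place of -1.09.

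Itgb1bp2 and Itgb3bp were taken up by the symbol rule although they code for no integrin: the former is melusin, a muscle protein that binds the beta 1 tail, and the latter a nuclear protein named for its binding to beta 3. Itgb3bp gave -0.55, -0.04, -1.23 and -0.51 at 3 h and 0.02, 0.30 and 0.18 at 10 h, below 0 on all 3 h arrays and above on all at 10 h (limma adjusted p of the difference 0.665). Read as Cy5 over Cy3, its fitted ratio at 3 h was 0.29 and the difference -0.14, in place of -0.58 and 0.69. Of its 4 values at 3 h, 2 were ratios of small whole numbers. Itgb1bp2 probe 19076 gave -3.40, -0.52 and -0.85 at 3 h and 0.13, 0.06 and -0.30 at 10 h. Its second probe, 19513, gave -0.36, -0.40 and -0.69 at 3 h and -0.56 and -0.40 at 10 h, all of them ratios of small whole numbers. The 3 probes of this class had a median of -0.58 at 3 h and 0.11 at 10 h (0.16 and 0.14 read as Cy5 over Cy3).

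Probes of 1 gene were compared by the sign of their fitted ratios, which pool the arrays and share any shift of a whole array. Of the 16 genes with several probes in the fit, the fitted signs differed between probes for 5 at 3 h, 9 at 10 h and 6 for the difference. At 3 h these genes were Col4a1, Fn1, Itgb1, Lamc1 and Timp3. At 10 h they were Col4a1, Col5a1, Col5a2, Fn1, Itgb1, Itgb1bp2, Itgb5, Timp3 and Timp4. For the difference they were Col1a2, Itgb1, Itgb1bp2, Lamc1, Lox and Timp3. In the assumed direction, Pcolce, Col6a2 and Timp2 had both fitted ratios above 0 at 3 h and both below at 10 h. Read as Cy5 over Cy3, the Pcolce probes had 0.23 and -0.14 at 3 h, and the Timp2 probes 0.10 and -0.20 at 10 h. How often signs differ between probes of a gene over the whole array was not counted.

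**Figure D3:**
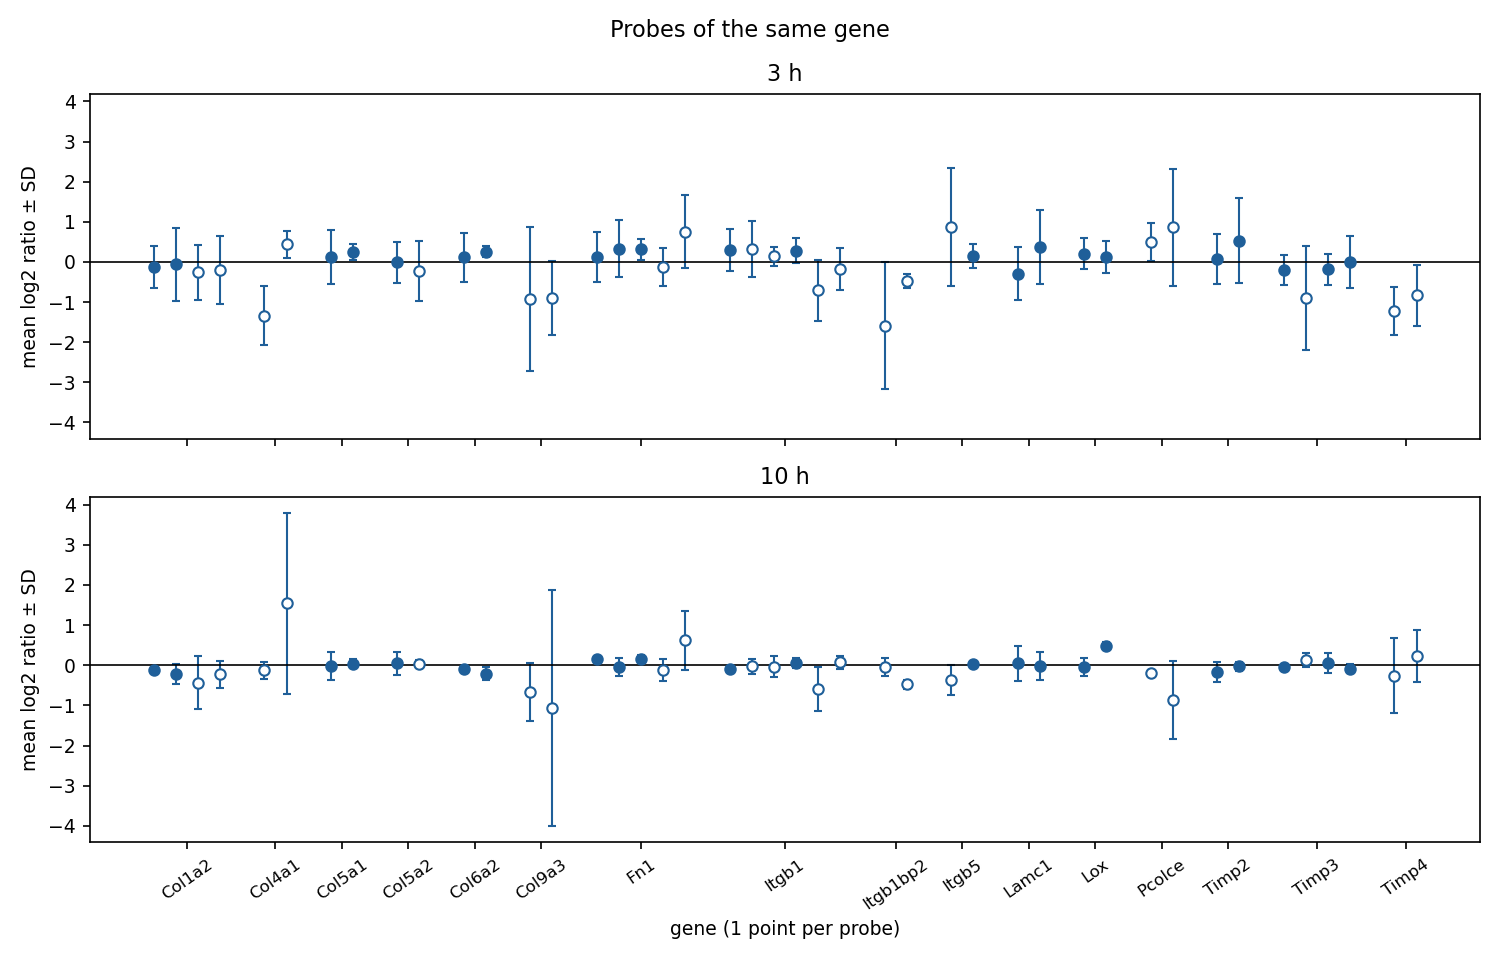
Mean log2 ratio over arrays (vertical axis, bars are the SD) of each probe of the 16 genes with several probes in the fit, at 3 h (top) and 10 h (bottom). Filled points are well measured probes and open points the others; the bars are long at 3 h for both kinds, and at 10 h short for the filled points.

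Other matrix and adhesion genes were taken from lists by function, and 0 of their probes passed in either direction at either time. Enzymes and chaperones of collagen folding, crosslinking and assembly (16 probes in the fit) had medians of 0.12 at 3 h and -0.05 at 10 h. The smallest p-values at 3 h were those of P4ha2, a prolyl hydroxylase subunit that stabilises the triple helix, at -0.64 ± 0.22 (SD, n = 4; limma adjusted p = 0.311), and of Crtap, a cofactor of another prolyl hydroxylase, at 0.53 ± 0.54 (SD, n = 4). P4ha2 was below 0 and Crtap above 0 on every 3 h array. At 10 h the lysyl oxidase relatives Loxl3, at -0.39 ± 0.42 (SD, n = 3), and Loxl2, at -0.98 ± 2.09 (SD, n = 3), led the list.

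Other matrix glycoproteins and proteoglycans (27 probes) had medians of -0.00 at 3 h and -0.15 at 10 h. Sparc, a collagen-binding glycoprotein, and Prelp, a collagen-binding proteoglycan, had the smallest p-values at both times. Sparc had a mean of 1.30 ± 0.55 (SD, n = 3) at 3 h and -0.48 ± 0.45 (SD, n = 3) at 10 h (limma adjusted p of the difference 0.579), and was above 0 on all 3 arrays at 3 h and on 1 of 3 at 10 h. Prelp had 0.81 ± 1.39 (SD, n = 3) and -1.51 ± 2.02 (SD, n = 3), with values on both sides of 0 at each time.

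The plasminogen system and other matrix proteases (9 probes) had medians of -0.12 and -0.13. Plau, the plasminogen activator urokinase, was below 0 on every 3 h array, with a mean of -1.52 ± 1.71 (SD, n = 4; limma adjusted p = 0.286). Fap, a fibroblast surface protease, had -0.96 ± 1.17 (SD, n = 3) at 3 h and 0.76 ± 0.90 (SD, n = 3) at 10 h. Adam10, a sheddase, was below 0 on both arrays that measured it at 10 h, at -1.07 ± 0.32 (SD, n = 2).

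Focal adhesion proteins and other matrix receptors (14 probes) had medians of 0.06 and -0.02. Their smallest p-values at 3 h belonged to Pxn, the adaptor paxillin, at 0.76 ± 0.75 (SD, n = 4; limma adjusted p = 0.335), and Parva, an actin-binding partner of integrin-linked kinase, at 0.91 ± 1.44 (SD, n = 4). Each was above 0 on 3 of 4 arrays. At 10 h they belonged to Ddr2, a collagen receptor kinase, at 0.20 ± 0.22 (SD, n = 3), and Vcl, vinculin, at 0.29 ± 0.31 (SD, n = 3). Of TGF-beta signalling, an inducer of collagen genes in fibroblasts, 9 probes had medians of -0.13 and -0.16. Smad3, which carries that signal to the nucleus, was below 0 on all 3 arrays that measured it at 3 h, at -1.55 ± 0.50 (SD, n = 3; limma adjusted p = 0.254), and had -0.37 ± 0.57 (SD, n = 3) at 10 h. The ligand Tgfb3 had a fitted ratio of -0.86 at 3 h with a standard error of 0.40, and the repressor Ski -0.24 ± 0.57 (SD, n = 3) at 10 h.

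Markers of fibroblasts (12 probes in the fit) had a median of 0.20 at 3 h and -0.09 at 10 h, with per-array medians at 3 h of 0.25, 0.55, -0.53 and 0.27. All probes in the fit were also lowest on replicate 3, with medians of -0.11, -0.08, -0.33 and -0.07 in that order. Markers of macrophages and lymphocytes (5 probes) had medians of -0.33 and 0.22, of epithelium (4 probes) -0.74 and -0.06, and of endothelium (6 probes) 0.27 and 0.63. The endothelial markers with the smallest p-values at 3 h went opposite ways. Eng was below 0 on every array, at -1.75 ± 1.35 (SD, n = 4; limma adjusted p = 0.254). Vwf was above 0 on every array that measured it, at 1.62 ± 0.60 (SD, n = 3; limma adjusted p = 0.254). In these 4 lists 0 probes passed in either direction. Their part in the ratios of the matrix genes was not tested.

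Genes outside the fit lacked values mainly at 3 h. Of the 56 probes, 52 had too few values at 3 h, 16 too few at 10 h and 12 too few at both. Member probes entered the fit as often as others, 57.3% against 56.8% of all probes. Col3a1, the type III chain that joins type I collagen in soft tissue, was measured on 1 array at 3 h (1.19) and gave -1.06, -4.30 and 1.99 at 10 h. The 33 genes without a probe in the fit came from every class but the Timp, Adamts and integrin-binding classes. Measured on at most 2 arrays at 3 h and 3 at 10 h were Col2a1, Col6a4, Col11a1, Col13a1, Col27a1, Lama4, Mmp7, Mmp12, Mmp17, Mmp23, Itga3, Itga4 and Itgb2l. On 2 and 2 arrays were Bgn, Col25a1, Col28a1, Fbn2 and Itga9, and on 2 and 1 Col14a1, Fbln1, Itga11 and Lama1. Besides Col3a1, Col7a1 and Mmp13 were measured on 1 array at 3 h and 3 at 10 h, Itga6, Lamc3 and Mmp24 on 1 and 2, and Lama3 on 1 and 1. Itgb7 was measured on 4 and 1 arrays and Lamb2 on 3 and 1, so that only the 10 h values were too few. Lamb1, Fbn1 and Itga5 had no probe with 1 symbol on the array and were not analysed here.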

How the data were processed

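RNA from treated and from non-treated cells was reverse transcribed, labelled indirectly with Cy3 or Cy5 and hybridised together, per the labels' protocols. These also mention organs and a reference pooled from control animals; the source names, fibroblasts in both channels, were followed. The authors deposited 1 table of log2 ratios of 20355 probes on 7 arrays. The scanning and normalization method is not given in the sources used here, and the log base was read from the values.

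Probes were named through the platform annotation, with 14030 carrying 1 symbol, 5 several and 6320 none. All 131 member probes had gene identifiers in the RefSeq gene table and 0 symbols changed. Each array held 1 repeated value of absolute size over 15, on 163 to 1614 spots, which was treated as missing. Probes with at least 3 values at 3 h and 2 at 10 h were fitted with limma 3.58.1 (R 4.3.3; lmFit and eBayes) on all 7 arrays, with a coefficient for each time and a dye covariate (treated cDNA in Cy5 or Cy3). Each ratio was tested against 0, two-sided, with Benjamini-Hochberg adjustment over all 11559 probes and a threshold of 0.05. The non-treated RNA shares every array with the treated, so its own spread is not measured. Means and SDs are of the deposited values without the dye term. That term was common to both times, so a fitted ratio at 10 h can differ in sign from the measured values. The pipeline was tested on simulated normal noise with known shifts. That simulation held no dye effect, coarse ratios or shift of a whole array, so it did not cover those features.

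Named genes were a fixed list of matrix and integrin genes with every probe in the fit, plus the 2 probes of each class with the smallest p in each comparison. Also named were probes of 1 gene that differed in sign, members not in the fit, and in other functional lists the 2 genes with the smallest p at each time. Members, lists and rules were chosen with earlier results of these data known. Replicate numbers are shared between times, but same-numbered arrays correlated at 0.023, 0.023 and 0.065 in their deviations from the group means, so they were not treated as pairs. At most 0.39% of values were identical between any 2 arrays. Alternatives covered the direction of the ratios, centring, the dye term, missing values, the filters, averaging of probes, the replicate block and leaving out each array. Arrays carry no read depth, and their number limits the precision.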

Additional observations from a re-analysis of the deposited data

Results flagged for a closer look

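In 7 of 63 sets of 4 values at 3 h (each member probe with 4 values, and the medians of all members and of classes), 1 array stood far from the others by Dixon's criterion, which flags about 1 set in 20 by chance. Replicate 3 was the low array in 5 of them: Itgb4 probe 15736 (-1.22), Timp2 probe 16306 (-0.85), Timp2 probe 18062 (-1.05), the median of all 75 members (-0.52) and the median of the fibrillar collagens (-0.77). Replicate 4 stood apart in the other 2, high for Lox probe 1602 (0.78) and low for the median of the matrix metalloproteinases (-0.80). The sets share arrays and so are not independent.

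In the assumed direction, every array at 3 h lay on one side of 0 and every array at 10 h on the other for 3 members. The mean at 10 h minus that at 3 h was 1.12 for Itga2b, 0.75 for Itgb3bp and -0.46 for Col6a2 probe 19514. Of all probes in the fit, 533 (4.61%) behaved so, against 4% of members. The limma difference between the times, given with these genes above, did not pass the threshold for any of the 3.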

How the results depend on the processing

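The count of members past the threshold was 0 at 3 h, at 10 h and in the difference under every alternative run, including the fit restricted to the well measured probes, which was chosen after seeing the data. Unadjusted p-values under 0.05 are given above for all 3 comparisons. The median over members at 10 h, -0.056, was 0.014 with ratios read as Cy5 over Cy3 and 0.072 with the replicate block, which moved no call. Leaving out each array in turn, it ran from -0.172 (without replicate 3 at 10 h) to 0.007 (without replicate 1 at 10 h). The median at 3 h ran from -0.18 to 0.15 and that of the difference from -0.19 to 0.11. Without replicate 3 at 3 h, 44 of 75 members were above 0 at 3 h in place of 32, and the median was 0.15 in place of -0.06.

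Over all probes of the array, 6 passed at 3 h with the repeated extreme values kept, and 35 of 4071 with small whole-number ratios set to missing, none of them members. The causes of these differences were not tested. Fitting each time alone gives no difference. Over the 3 comparisons, class medians moved by more than the spread between arrays 10 times under the Cy5 over Cy3 reading, 10 with the Cy5 arrays alone, 9 without replicate 3 at 10 h, and 6 both with no filter and with the replicate block.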
